A study of Mus musculus with 15 samples.

Results

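The transcripts of 10 receptor tyrosine kinases were followed across mouse models of high-grade neuroendocrine lung carcinoma: Egfr, Erbb2, Erbb3, Met, Fgfr1, Fgfr2, Pdgfra, Pdgfrb, Igf1r and Kit. They were taken by gene name from a matrix of 55359 genes, and all 10 were found once and passed the filter on low values in every comparison. Poly-A RNA was sequenced in 15 samples that form 5 groups of 3. The groups were 46LCNEC_cell and 57SCLC_cell, which are cultured tumor lines, 46LCNEC_allo and 57SCLC_allo, which are tumors grown from those lines, and Lung. The comparisons ask how a large cell neuroendocrine carcinoma model (LCNEC) and a small cell lung carcinoma model (SCLC) differ from lung and from each other, and how the cells of each line differ from the tumors they form.

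Both lines came from mice with floxed Rb1 and Trp53 among other floxed tumor suppressor alleles and with constitutive loss of Rbl1. Recombination was started in the airways with adenovirus carrying Cre, under the CMV promoter for the LCNEC line and under the keratin 5 promoter for the SCLC line. Each tumor type is represented by a single line, so the tumor type, the promoter and the individual tumor cannot be told apart. The LCNEC cells grew attached and the SCLC cells, taken at passage 11, grew in suspension, and the medium contained mouse EGF and insulin, which are ligands of Egfr and of the insulin receptor family. Allografts were subcutaneous tumors, injected with Matrigel into immunocompetent mice of the same genetic background. Host and tumor are both mouse, so reads of host cells in an allograft could not be separated from reads of tumor cells. Lung was whole lung of littermates of the allograft hosts. By the paper, these hosts were of the floxed, Rbl1-null strain that the lines came from. Sources used here gave no ages of the animals. The 3 cell samples of a group are culture vessels of the same line, and p-values for them measure the spread between vessels.

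Receptor tyrosine kinases are membrane proteins that bind a growth factor outside the cell, pair up, and phosphorylate each other on tyrosines inside it. Adaptors such as Shc1, Grb2 and the Irs proteins dock on those tyrosines and pass the signal to the Ras-ERK and PI3K-AKT pathways. Sprouty, Spred and Dusp proteins are made in response and damp the signal. In lung, Egfr, Erbb2, Erbb3, Met and Fgfr2 are known mainly from epithelium, Pdgfra and Pdgfrb from fibroblasts and pericytes, and Kit from mast cells, some endothelial cells and small cell carcinoma.

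Promoter sequence is shown for 3 members: Egfr and Met, which were lower in the 57SCLC line, and Kit, which was higher there. RefSeq promoter windows on GRCm38.p6 were available for 7 of the 10 members, and those of Egfr, Met and Kit matched GRCm39 once each. The windows are printed 5′ to 3′ on the gene's strand, from their first base to at most 5 bases past the annotated gene start. They lie at chr11:16701953-16702202 (Egfr, plus strand), chr6:17463706-17463753 (Met, plus strand) and chr5:75735397-75735580 (Kit, plus strand) on GRCm39, and capitals mark a GC box (GGGCGG on either strand).
Egfr: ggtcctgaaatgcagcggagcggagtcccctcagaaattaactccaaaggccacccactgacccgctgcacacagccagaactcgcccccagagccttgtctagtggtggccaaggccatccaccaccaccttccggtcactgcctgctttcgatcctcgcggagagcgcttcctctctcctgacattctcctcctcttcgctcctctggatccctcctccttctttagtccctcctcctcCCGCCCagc
Met: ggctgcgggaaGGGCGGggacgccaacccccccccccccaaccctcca
Kit: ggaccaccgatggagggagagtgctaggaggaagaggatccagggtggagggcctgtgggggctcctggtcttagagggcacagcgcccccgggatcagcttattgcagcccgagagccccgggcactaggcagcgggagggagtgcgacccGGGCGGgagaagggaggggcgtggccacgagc
Over the whole window of 250 bases, Egfr had 60.8% G or C and 11 CpG pairs, Met 74.0% and 24, and Kit 70.8% and 17. The medians over 32851 mouse promoter windows of that length were 52.4% and 6 CpG. The 3 windows held 1 GC box each for Egfr and Kit and 3 for Met, and 32.7% of all windows held at least 1. The AP-1 motif TGANTCA, searched on both strands, occurred once in the window of Met and not in those of Egfr and Kit, against 6.75% of all windows. The whole windows of Met and Kit end at 17463955 and 75735646, inside the genes, whose annotated starts are 17463749 and 75735576. Only 48 of the 250 bases of Met are printed. Its AP-1 match and all but 1 of its GC boxes lie in the rest, past the annotated start. The 2 motifs cannot overlap each other. These matches describe the windows and were not tied to the expression differences.

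The reads counted per sample ranged from 9480244 in 57SCLC_allo 275 to 44876572 in 57SCLC_cell C. Values are normalized counts, that is, reads divided by a size factor of the sample, so 1 read equals between 0.521 and 2.39 normalized counts and a gene with 3 reads or fewer was taken as not detected. Differences are given as the log2 fold change (log2FC) with its standard error (SE), fitted by limma on log2(normalized count + 1), a scale that understates changes of low genes. Unless a floor is named, fold values between groups are ratios of group means. They can differ from the log2FC, which averages logs, where the samples of a group spread. A gene was called higher or lower where the Benjamini-Hochberg adjusted p was 0.01 or less and the log2FC at least 1 in size, that is, 2-fold. The marker check of the labels was mixed. 57SCLC cells had Epcam at 12782 to 13779.8 and Chga at 8951 to 9885, while in 46LCNEC cells Epcam was at 17.8 to 24.3, Chga at 2.31 to 6.62, Krt8 was not detected and the collagen gene Col1a1 was at 19769 to 22399. Krt19, also an epithelial marker, went the other way, at 6425 to 7443 in 46LCNEC cells and 14.7 to 65.1 in 57SCLC cells. Ncam1 was at 28614 to 31510.0 in the 46LCNEC cells. Rb1, Rbl1 and Trp53 were read over all exons in every group. Rb1 was at 66.6 to 99.9 in 46LCNEC cells, 229 to 777 in 57SCLC cells and 247 to 329 in Lung. In every sample Rbl1 was at 750.4 or more and Trp53 at 923 or more. These totals do not show which floxed alleles recombined, nor the constitutive loss of Rbl1.

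The receptors made up different repertoires in the 2 lines. When each member was divided by its merged exon length and expressed as a share of the 10, Pdgfrb held 29.1% ± 1.35 (SD, n = 3) of the 46LCNEC cell total, followed by Erbb2 with 14.3% ± 0.358, Fgfr1 with 13.7% ± 0.165 and Met with 12.4% ± 0.600. In the 57SCLC cells, Erbb3 held 36.7% ± 5.18, Fgfr2 31.5% ± 6.34, Kit 23.7% ± 2.83 and Igf1r 6.81% ± 1.24. The other 6 members were between 0 and 1.01% ± 0.446 there. Lung was more even, with Fgfr2 at 18.6% ± 0.473, Pdgfra at 16% ± 0.376, Pdgfrb at 15.7% ± 0.833 and Kit at 13.8% ± 0.181. In the 46LCNEC allografts Met and Pdgfrb each averaged near the same share, 29.1% ± 20.6 and 29.1% ± 13.6, but Met ran from 6.41% to 46.8% between the 3 tumors. The 57SCLC allografts had Erbb3 at 19.9% ± 2.15, Pdgfrb at 19.1% ± 6.11, Kit at 17.5% ± 1.67, Igf1r at 15.7% ± 1.28 and Fgfr2 at 15.5% ± 3.56. The order depended on the length used. With the longest transcript in place of the merged exons, Fgfr2 led in the 57SCLC cells at 40.9% and in their allografts at 20.4%, where Erbb3 held 13%, behind Kit, Pdgfrb and Igf1r as well. Pdgfrb still led in the 46LCNEC cells, at 26.5%, followed by Fgfr1 at 19.4%, Fgfr2 at 12.7% and Igf1r at 12.4%, with Erbb2 at 10.4% and Met at 9.56% behind them.

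**Figure D1:**
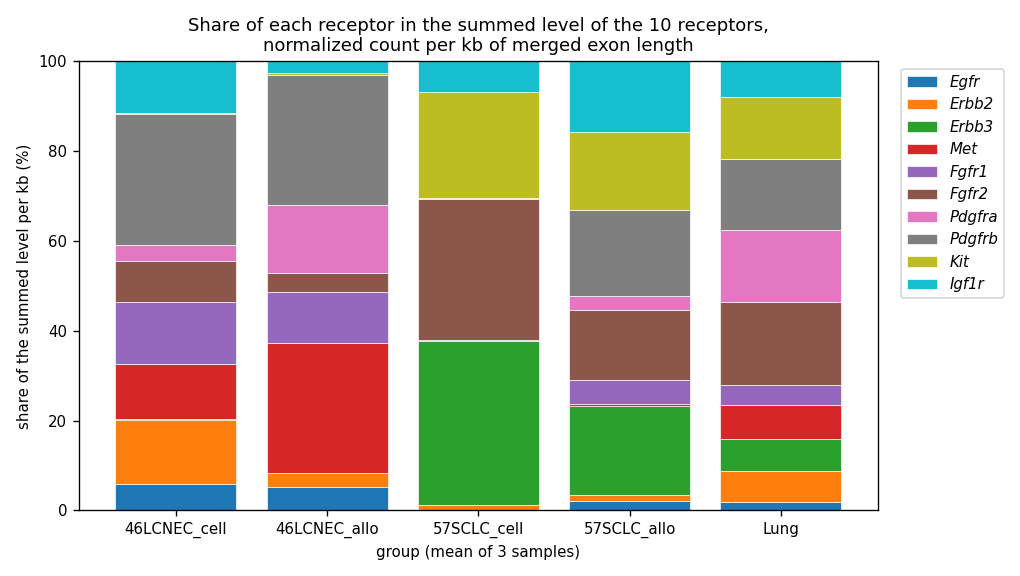
Stacked bars of the share (%) of each of the 10 receptors in their summed level per kilobase of merged exon length, as the mean of 3 samples for each of the 5 groups. Erbb3, Fgfr2, Kit and Igf1r fill nearly all of the 57SCLC cell bar, whereas Pdgfrb, Erbb2, Fgfr1 and Met are the largest parts of the 46LCNEC cell bar at this length.

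**Figure D2:**
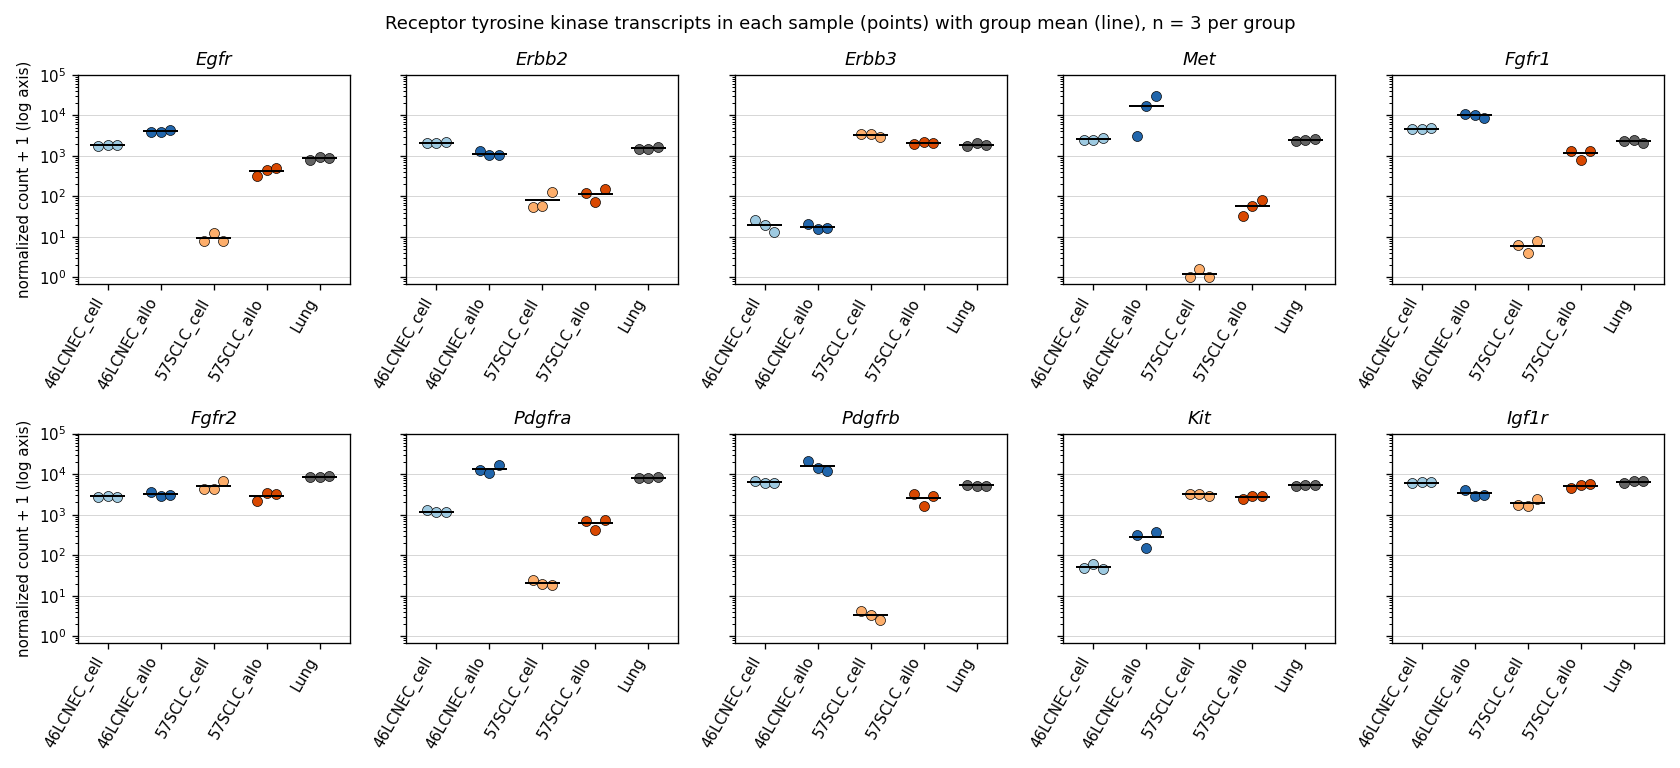
Normalized count + 1 of each receptor on a log axis in the 15 samples, with points for samples and a line for the mean of each group of 3. Egfr, Met, Fgfr1, Pdgfra and Pdgfrb are lowest in the 57SCLC cells, and Erbb3 and Kit are lowest in the 46LCNEC groups.

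Values below are in the order A, B and C for cells, 312, 319 and 321 for 46LCNEC allografts, 275, 316 and 317 for 57SCLC allografts, and CT3, CT4 and CT5 for Lung. Positions are on GRCm39, and all values are counts over exons.

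Among the ErbB receptors, Egfr (ENSMUSG00000020122, chromosome 11, 16702198 to 16868158) binds EGF, TGF-alpha, amphiregulin and epiregulin. Egfr stood at 1753, 1898 and 1864 normalized counts in 46LCNEC cells and at 7.09, 11.5 and 6.77 in 57SCLC cells. In allografts it stood at 3988, 3966 and 4401 in 46LCNEC and at 316, 436 and 508 in 57SCLC, and in Lung at 780.3, 933 and 880.3. No 2 groups overlapped, with 46LCNEC allografts highest and 57SCLC cells lowest. Egfr was 218-fold lower in 57SCLC than in 46LCNEC cells (log2FC -7.64, SE 0.21, adjusted p = 2.45e-08).

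Erbb2 (ENSMUSG00000062312, chromosome 11, 98303203 to 98328542) has no known soluble ligand and pairs with the other ErbB receptors. Its counts were 2057, 2041 and 2169.6 in 46LCNEC cells, 1347, 1051 and 1022 in their allografts and 1442, 1482 and 1669 in Lung. In the other line they were 54.5, 57.3 and 124 in cells and 119.7, 73.6 and 149.8 in allografts. The 57SCLC samples were all below the lowest 46LCNEC sample, and the 57SCLC cells and allografts overlapped. Sample C of the 57SCLC cells was above A and B. The difference between the lines was 26.6-fold in cells (log2FC -4.82, SE 0.29, adjusted p = 1.73e-06) and 9.97-fold in allografts (log2FC -3.35, SE 0.28, adjusted p = 0.000118).

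Erbb3 (ENSMUSG00000018166, chromosome 10, 128403392 to 128425811), which binds neuregulins and has a weak kinase of its own, had the opposite pattern. It was at 25.3, 18.8 and 12.3 in 46LCNEC cells and 19.9, 14.7 and 15.5 in 46LCNEC allografts. It was at 3424, 3432 and 2908 in 57SCLC cells, 1956, 2255 and 2054 in 57SCLC allografts and 1729.6, 2029.6 and 1839 in Lung. The 46LCNEC cells and allografts overlapped at a low level, the 57SCLC allografts overlapped Lung, and the 57SCLC cells were above all others. Erbb3 was 173-fold higher in 57SCLC than in 46LCNEC cells (log2FC 7.41, SE 0.24, adjusted p = 5.69e-08) and 125-fold higher in allografts (log2FC 6.89, SE 0.20, adjusted p = 5.55e-06). In 46LCNEC cells Erbb2 was thus read at 385 ± 13 normalized counts per kilobase and Erbb3 at 2.98 ± 1.03, and in 57SCLC cells the order was turned, at 14.5 ± 7.25 and 516 ± 47.6.

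Met (ENSMUSG00000009376, chromosome 6, 17463749 to 17573979), the receptor of hepatocyte growth factor, was not detected in the 57SCLC cells, with 0, 1 and 0 reads. It was at 2520.1, 2474 and 2756 in 46LCNEC cells and at 2307, 2448 and 2602 in Lung, which overlapped. The 57SCLC allografts had 31.1, 58.0 and 82.8. Measured against a floor of 3 reads per library in the 57SCLC cells, Met was at least 1547-fold higher in 46LCNEC cells, at least 1469-fold higher in Lung and at least 34.3-fold higher in 57SCLC allografts. All 3 differences passed the test, with adjusted p = 8.94e-09, 1.76e-08 and 2.76e-05 by limma.

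The 46LCNEC allografts differed among themselves in Met, at 3017, 17279 and 30719.6. Tumor 312 was 1.17-fold above the mean of the cells, while 319 and 321 were above every other sample of the series. The ratio of their mean to that of the cells was 6.58, to which tumor 321 added most. The difference from the cells did not pass the test (log2FC 2.18, SE 0.75, adjusted p = 0.0435), nor did the difference from Lung (log2FC 2.26, SE 0.79, adjusted p = 0.044). Without tumor 312 both passed, with log2 fold changes of 3.16 (adjusted p = 0.00027) and 3.23 (adjusted p = 0.00034) by limma. DESeq2 on the recovered reads called both, with adjusted p = 0.00287 and 1.63e-05, and edgeR called neither, with 0.0168 and 0.0148.

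Genes around Met were looked at after its values had been seen. Within 1000 kb on either side, 9 other genes reached a mean of 10 normalized counts over the 6 samples of the 46LCNEC line. In tumor 321, Capza2, which encodes an actin capping subunit and starts 172.5 kb from Met, stood at 36589, against 5632 in tumor 312, 5223 in tumor 319 and a mean of 3702 in the cells. St7 stood at 4912 in tumor 321, 1034 in 312, 432 in 319 and 874 in the cells. Asz1 and Cftr were at 201 and 375 in tumor 321, and both were at 1.05 or less in tumors 312 and 319. All 9 genes were higher in tumor 321 than in the other 2 tumors, but how many of all genes were so was not counted. Of the 9, Tfec was also above the cells in tumors 312 and 319, at 121.9 and 106.3 against 0. On the scale of normalized count + 1, 4 of the 9 (Gm15473, Capza2, Asz1 and Cftr) were at least 5-fold higher in tumor 321 than in 312, against 3.07% of 16535 genes. In tumor 319, where Met was 5.73-fold above tumor 312, 0 of the 9 neighbours were at least 5-fold higher, against 1.11% of genes. Tumors 319 and 321 thus shared a high Met and differed in the genes next to it. DNA copy number was not measured.

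**Figure D3:**
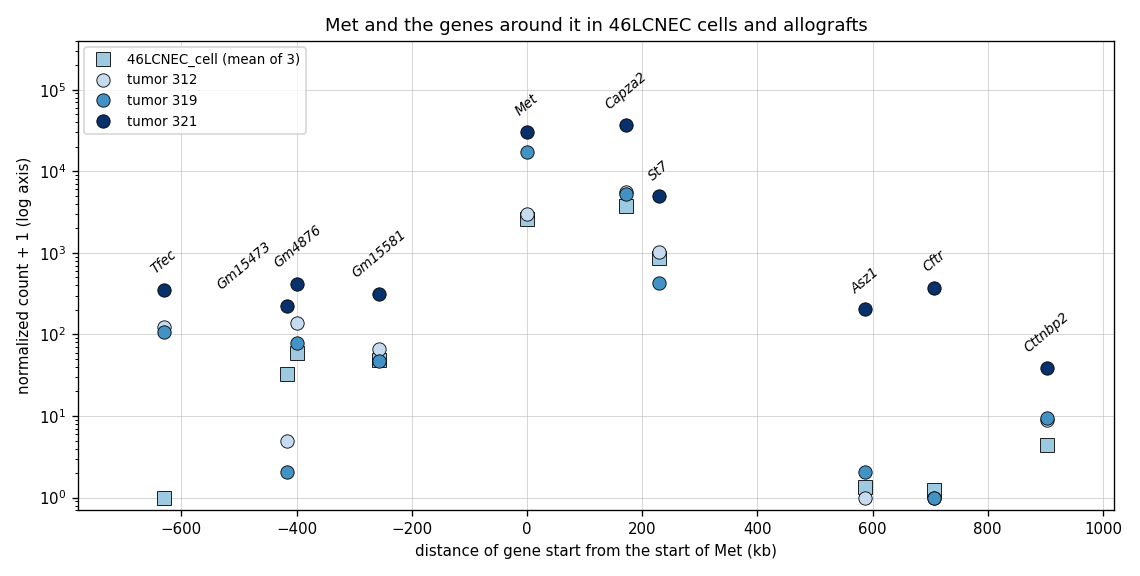
Normalized count + 1 (log axis) of Met and of the 9 genes within 1000 kb, by distance of the gene start from the start of Met in kb, for the mean of the 46LCNEC cells and for allografts 312, 319 and 321. Met is high in tumors 319 and 321, and all 9 other genes are highest in tumor 321 among the 3 tumors. How many of all genes are highest in that tumor was not counted.

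The fibroblast growth factor receptors parted from each other. Fgfr1 (ENSMUSG00000031565, chromosome 8, 26003670 to 26066824), widely known from mesenchyme, was at 4705, 4589 and 4820.4 in 46LCNEC cells and 10995, 9985 and 8827 in their allografts. It was at 5.45, 3.02 and 6.77 in 57SCLC cells, or 10, 5 and 13 reads, at 1317, 780.0 and 1337 in 57SCLC allografts and at 2373, 2399.6 and 2116 in Lung. None of the 5 groups overlapped. Fgfr1 was 926-fold lower in 57SCLC than in 46LCNEC cells (log2FC -9.65, SE 0.24, adjusted p = 1.73e-08).

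Fgfr2 (ENSMUSG00000030849, chromosome 7, 129763471 to 132725079), the receptor of Fgf7 and Fgf10 in lung epithelium, was read at 2775, 2887 and 2803 in 46LCNEC cells and 4326, 4322 and 6603 in 57SCLC cells. Its span and merged exon length are from a GENCODE release later than the one used for counting. In that release the span reaches Ctbp2, with which 2.8% of the exonic bases are shared. Allografts had 3607, 2941 and 2996 in 46LCNEC and 2171, 3457 and 3194 in 57SCLC, and Lung had 8591, 8417 and 9084. Lung was above all tumor samples, the 57SCLC allografts overlapped both 46LCNEC groups, and the 46LCNEC allografts were just above the 46LCNEC cells with no overlap. Fgfr2 was the only member not called between the lines in cells (log2FC 0.82, SE 0.16, adjusted p = 0.00183), although the groups did not overlap. Library size scaling moved the median of all genes to 0.24 and Fgfr2 to 1.05, which was called.

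Pdgfra (ENSMUSG00000029231, chromosome 5, 75311994 to 75358876), a receptor of platelet-derived growth factors found on fibroblasts, stood at 1270.4, 1165 and 1136 in 46LCNEC cells and 12346, 10868 and 16369 in 46LCNEC allografts. Lung had 8096, 7902 and 8440.1. The 57SCLC cells had 23.5, 18.1 and 17.2, and their allografts 716, 416 and 757. The order was 46LCNEC allografts, Lung, 46LCNEC cells, 57SCLC allografts and 57SCLC cells, with no overlap. In cells Pdgfra was 60.8-fold lower in 57SCLC (log2FC -5.87, SE 0.16, adjusted p = 2.53e-08).

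Pdgfrb (ENSMUSG00000024620, chromosome 18, 61178212 to 61218133), the receptor of PDGF-B known from pericytes and fibroblasts, stood at 6718, 6129 and 6193 in 46LCNEC cells and 21685, 13984 and 11839 in 46LCNEC allografts. Only 6, 4 and 3 reads were counted in the 57SCLC cells, which is 3.27, 2.41 and 1.56 normalized counts and puts sample C at the floor, while the 57SCLC allografts had 3251, 1656 and 2855 and Lung 5439, 5126 and 5167. The groups again did not overlap. The lowest 57SCLC allograft was 316, which was also the lowest of the 3 for Fgfr1 and Pdgfra. Pdgfrb was 2627-fold lower in 57SCLC than in 46LCNEC cells (log2FC -10.89, SE 0.20, adjusted p = 6.00e-09).

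Kit (ENSMUSG00000005672, chromosome 5, 75735576 to 75817404), the receptor of stem cell factor, was at 46.9, 58.5 and 44.6 in 46LCNEC cells and 321, 153 and 383 in 46LCNEC allografts. It was at 3326, 3228 and 2898 in 57SCLC cells, 2454, 2935 and 2881 in 57SCLC allografts and 5239, 5469 and 5509 in Lung. The 57SCLC cells and allografts overlapped and lay between Lung and the 46LCNEC samples. Kit was 63.0-fold higher in 57SCLC than in 46LCNEC cells (log2FC 5.96, SE 0.13, adjusted p = 1.04e-08) and 9.66-fold higher in allografts (log2FC 3.37, SE 0.33, adjusted p = 0.000228).

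Igf1r (ENSMUSG00000005533, chromosome 7, 67601518 to 67883416), the receptor of insulin-like growth factors, was read at 1601 or more in every sample. It was at 5910.0, 6249 and 6283 in 46LCNEC cells, 4156, 2949 and 3012 in 46LCNEC allografts and 5900.4, 6607 and 6794 in Lung. The other line had 1695, 1601 and 2437 in cells and 4582, 5378 and 5560.4 in allografts. The 46LCNEC cells overlapped Lung, and the other groups were separate. Igf1r was 3.22-fold lower in 57SCLC than in 46LCNEC cells (log2FC -1.71, SE 0.15, adjusted p = 1.75e-05). In allografts the line order was turned, with a log2 difference of 0.63 that did not pass the test (adjusted p = 0.0144, limma).

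Between the lines, 9 of the 10 members were called in cells. Erbb3 and Kit were higher in 57SCLC cells, and Egfr, Erbb2, Met, Fgfr1, Pdgfra, Pdgfrb and Igf1r were lower. Over all genes tested, 23.9% were called higher and 22.2% lower, and the median log2 fold change was -5.34 for the members and 0.0003 for all genes. In allografts 8 were called, with Erbb3 and Kit higher and Egfr, Erbb2, Met, Fgfr1, Pdgfra and Pdgfrb lower in 57SCLC, beside 16.1% and 14.2% of all genes. The medians there were -2.89 and 0.01. Fgfr1 differed by -9.65 between the lines in cells and by -3.15 in allografts, and Pdgfrb by -10.89 and -2.62, both as log2 fold changes.

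From cells to allografts, more members rose than fell in each line. In 46LCNEC, Pdgfra rose 11.1-fold (log2FC 3.45, SE 0.16, adjusted p = 9.26e-06) and Kit 5.71-fold (log2FC 2.40, SE 0.36, adjusted p = 0.00145). Egfr rose 2.24-fold, Pdgfrb 2.50-fold and Fgfr1 2.11-fold, with adjusted p = 9.19e-05, 0.00239 and 0.000259 by limma. Thus 5 of 10 were called higher and 0 lower by limma, beside 14.4% and 8.45% of all genes, with medians of 1.12 and -0.0007. Erbb2 and Igf1r had log2 fold changes of -0.88 and -0.88, short of the 2-fold threshold, and were the 2 that were lower at an unadjusted p under 0.05, while edgeR and DESeq2 also called 0 lower. Fgfr1 was at the threshold, and without tumor 312 its log2 fold change was 0.997 and not called, while Erbb2 and Igf1r were then called lower, at -1.01 and -1.04. Pdgfrb lost its call without any of the 3 cell samples, at adjusted p = 0.0124, 0.014 and 0.0146 without A, B and C, and tested against a 2-fold change only Pdgfra kept its call.

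In 57SCLC, Pdgfrb rose 1071-fold from cells to allografts (log2FC 9.54, SE 0.31, adjusted p = 3.61e-07), Fgfr1 225-fold (log2FC 7.57, SE 0.32, adjusted p = 8.98e-07), Egfr 49.8-fold (log2FC 5.49, SE 0.28, adjusted p = 2.20e-06) and Pdgfra 32.1-fold (log2FC 4.90, SE 0.27, adjusted p = 2.94e-06). Igf1r rose 2.71-fold (log2FC 1.46, SE 0.16, adjusted p = 0.000184). With Met, 6 of 10 were called higher and 0 lower by limma, as by edgeR and DESeq2, beside 14.4% and 2.29% of all genes, and the medians were 3.18 and 0.0044. Kit, Erbb3 and Fgfr2 had log2 fold changes of -0.19, -0.64 and -0.79 and were not called, and Erbb3 and Fgfr2 were the 2 lower ones at an unadjusted p under 0.05.

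The summed levels of fibroblast, pericyte and smooth muscle, endothelial and leukocyte markers rose from cells to allografts in both lines. The summed level of 8 fibroblast markers was 48.5 to 68.3 in 57SCLC cells, with Dcn, Col3a1, Dpt and Lum not detected, and 39013 to 59599.6 in 57SCLC allografts, with all 8 detected. In 46LCNEC it was 74975 to 85432 in cells, with Dpt and Lum not detected, and 405747 to 821826 in allografts, and in Lung 15819.9 to 22065. Pericyte and smooth muscle markers summed to 257 to 320.4 and 6676 to 9324 in 57SCLC cells and allografts and to 609 to 777 and 5126 to 11331 in those of 46LCNEC. In 57SCLC cells 3 of those 8, Rgs5, Kcnj8 and Acta2, were not detected, and in the other groups all 8 were detected. Not all of them rose in 46LCNEC. Cnn1 was at 89.1 to 106 in the cells and 25.3 to 53.0 in the allografts, and Myh11 overlapped, at 8.44 to 20.8 and 10.5 to 59.6. Rgs5, Cspg4, Abcc9, Kcnj8, Acta2 and Des were higher in every 46LCNEC allograft than in the cells. Of the 7 endothelial markers, Cdh5, Cldn5, Emcn and Egfl7 were not detected in the cells of either line, and the sums were 7173 to 7814 in 57SCLC cells, 10480.1 to 11013 in their allografts, 109.9 to 141 in 46LCNEC cells and 5579 to 9603 in their allografts. Vwf alone was at 7072 to 7724 in 57SCLC cells and 6628 to 8295 in their allografts. Leukocyte markers summed to 226 to 255 in 57SCLC cells and 1741 to 2691 in their allografts, and to 300.2 to 342 in 46LCNEC cells and 3159.7 to 6901 in their allografts, with 6 and 5 of the 7 not detected in the cells of 57SCLC and 46LCNEC. Both counts include Itgam, which was listed at 0 in every sample, Lung too, and shares 67.4% of its exonic bases with another annotated gene. The part of these cells in the rise of Pdgfrb, Pdgfra, Fgfr1, Egfr and Met was not tested. In bulk RNA, fewer cells of a type and less RNA per cell cannot be told apart.

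The mast cell markers were read beside Kit. Their sum was 9.99 to 28.7 in 46LCNEC cells, 87.4 to 127 in 46LCNEC allografts, 2.61 to 10.3 in 57SCLC cells, 122 to 187 in 57SCLC allografts and 3384 to 4719 in Lung. In the 46LCNEC allografts, where Kit rose, Fcer1a, Cma1, Ms4a2 and Mcpt4 were not detected and Cpa3 was at 0 to 7.95. Hdc, on the same list, was at 84.2 to 106.2 there and at 3.08 to 17.7 in the 46LCNEC cells, and made up most of the allograft sum. In the 57SCLC cells, where Kit was at 2898 to 3326, 7 of the 8 markers were not detected. The part of mast cells, or of endothelial cells, whose markers also rose, in the rise of Kit in 46LCNEC allografts was not tested. In 46LCNEC allografts the epithelial markers summed to 146 to 271, against 6659.6 to 7693 in the cells, and the neuroendocrine markers to 3098 to 7411, against 28669.7 to 31544. Krt19 made up most of the epithelial sum in the cells, at 6425 to 7443, and was at 5.26 to 23.8 in the allografts, while Epcam was at 17.8 to 24.3 and 10.6 to 103. Ncam1 made up nearly all of the neuroendocrine sums, at 28614 to 31510.0 in cells and 3058 to 7384 in allografts, and Chga was at 2.31 to 6.62 and 1.05 to 18.5. In 57SCLC the epithelial sums were 45143 to 51911 in cells and 45702 to 51209.6 in allografts, and the neuroendocrine sums 60667 to 78914 and 53308 to 65758. The part of these shifts in the receptor values was not tested.

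The step from cells to allografts differed between the lines for 6 members, by an interaction term over 12 samples. On the log2 scale the step was larger in 57SCLC for Pdgfrb (log2FC 8.27, SE 0.39, adjusted p = 3.48e-08), Fgfr1 (log2FC 6.50, SE 0.34, adjusted p = 8.34e-08), Egfr (log2FC 4.32, SE 0.28, adjusted p = 4.62e-07), Igf1r (log2FC 2.34, SE 0.24, adjusted p = 1.60e-05) and Pdgfra (log2FC 1.45, SE 0.32, adjusted p = 0.00379). It was smaller for Kit (log2FC -2.59, SE 0.38, adjusted p = 0.000275), which rose in 46LCNEC. Igf1r rose in 57SCLC (1.46) and had a log2 fold change of -0.88 in 46LCNEC. Mean Pdgfrb, Fgfr1, Egfr and Pdgfra started low in 57SCLC cells, at 2.42, 5.08, 8.44 and 19.6. They reached 2587, 1144, 420.1 and 629.6 in 57SCLC allografts, against 15836, 9936, 4118 and 13194.5 in those of 46LCNEC. In counts, the rise of these genes was larger in 46LCNEC. Over all genes 10.8% were called with a larger step in 57SCLC and 6.78% with a smaller one, and the medians were 1.90 and 0.10. Pdgfra was close to the threshold, and leaving out any of 46LCNEC_cell A, 46LCNEC_cell B, 57SCLC_cell B, 57SCLC_allo 275 and 57SCLC_allo 317 put its adjusted p between 0.0103 and 0.0115. Erbb2, at 1.47 and adjusted p = 0.0202, was called without 57SCLC_cell C (1.84) or 57SCLC_allo 316 (1.75). DESeq2 with no sample left out also called Erbb2 (1.38, adjusted p = 0.00787). Met, at 3.35 and adjusted p = 0.0147, was called without 46LCNEC_allo 312 (2.37) or 321 (4.05). Met was also called by DESeq2 (5.43, adjusted p = 0.00276), with a pseudocount of 0.1 (5.94, adjusted p = 0.00349) and with all 15 samples in 1 limma model (adjusted p = 0.00706). Its size depends on the small constant added to the counts, since Met was at or under the floor in 57SCLC cells. The cells and allografts of the 4 groups enter several of these comparisons, so the comparisons share samples.

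**Figure D4:**
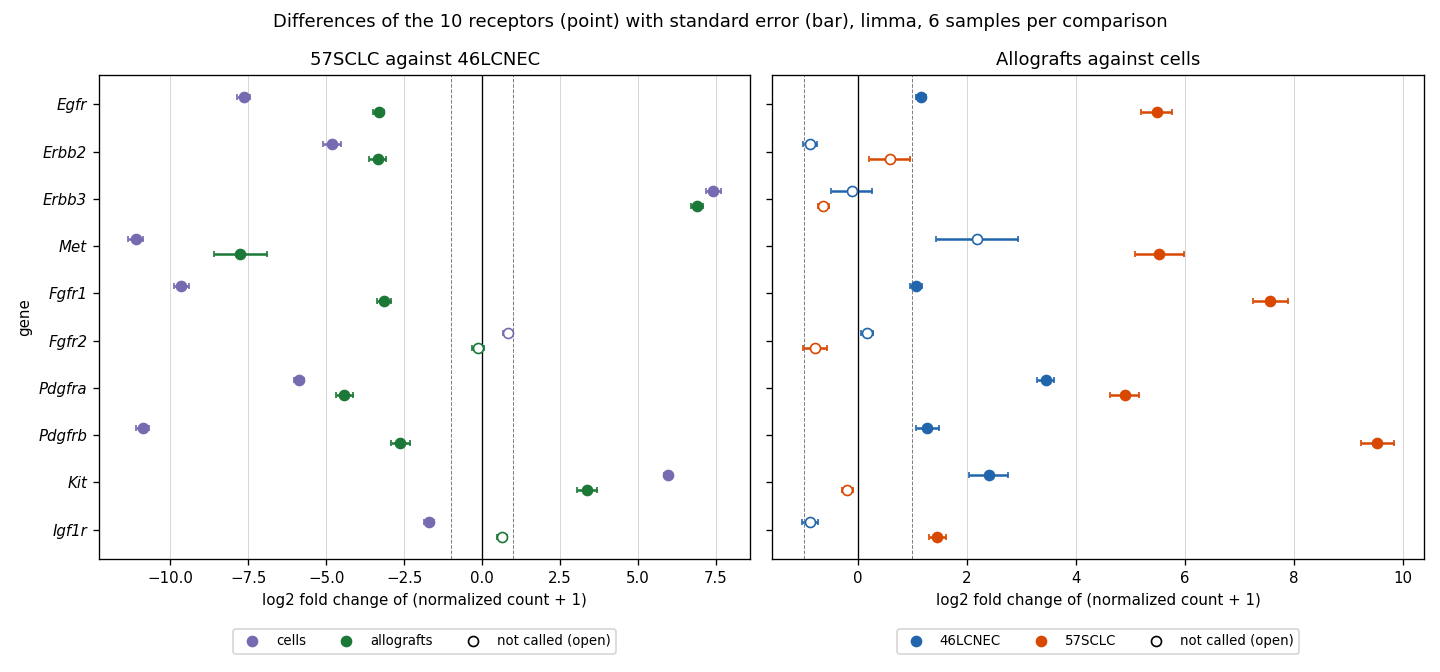
Log2 fold changes of (normalized count + 1) of the 10 receptors with their standard errors by limma, filled where called and open where not. The left panel compares 57SCLC with 46LCNEC in cells and in allografts, and the right panel compares allografts with cells in each line. Erbb3 and Kit lie to the right and Egfr, Erbb2, Met, Fgfr1, Pdgfra and Pdgfrb to the left for 57SCLC against 46LCNEC, and Pdgfrb and Fgfr1 have the longest steps from 57SCLC cells to allografts.

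Against Lung, 46LCNEC cells had Egfr 2.13-fold and Fgfr1 2.05-fold higher, with adjusted p = 2.29e-06 and 9.60e-07 by limma. Kit was 108-fold, Erbb3 99.3-fold, Pdgfra 6.84-fold and Fgfr2 3.08-fold lower. These 2 higher and 4 lower members stood beside 20.6% and 35.0% of all genes, with medians of 0.01 and -0.23. Without Lung CT5, Fgfr1 was at 0.98 and not called. Tested against a 2-fold change, Egfr and Fgfr1 both lost their calls (adjusted p = 0.312 and 0.577, limma). In the 46LCNEC allografts, Egfr (4.76-fold), Fgfr1 (4.33-fold) and Pdgfrb (3.02-fold) were higher, and Erbb3, Kit and Fgfr2 were lower, by 112, 18.9 and 2.73-fold. The shares of all genes were 13.4% and 22.1%, and the medians 0.12 and -0.14. In that comparison Pdgfrb and Fgfr2 lost their calls when tested against a 2-fold change (adjusted p = 0.0815 and 0.0123, limma). Igf1r, at -0.95, was called lower without tumor 312 (-1.11) and without Lung CT3 (-1.01).

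By limma 0 members were called higher than Lung in 57SCLC cells and 0 in 57SCLC allografts, as by edgeR and DESeq2, and at an unadjusted p under 0.05 there were 1 and 0. In the cells 7 were lower: Pdgfrb (2170.0-fold), Fgfr1 (452-fold), Pdgfra (416-fold), Egfr (102-fold), Erbb2 (19.5-fold), Igf1r (3.37-fold) and Met. Kit and Erbb3 had log2 fold changes of -0.78 and 0.80 there, and Fgfr2 of -0.80, short of 2-fold. Fgfr2 was called lower without 57SCLC_cell C (-1.01), and scaling by library size put Erbb3 at 1.03, called higher. Among all genes tested 21.1% were called higher and 32.7% lower, and the medians were -5.46 for the members and -0.12 for all genes.

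The 57SCLC allografts also had 7 members called lower than Lung. Met (42.8-fold), Erbb2 (13.4-fold), Pdgfra (12.9-fold) and Fgfr2 (2.96-fold) were called, and of these Fgfr2 lost its call when tested against a 2-fold change (adjusted p = 0.0124, limma). Egfr, Pdgfrb and Fgfr1 were near 2-fold, with log2 fold changes of -1.06, -1.08 and -1.04. These 3 were not called by edgeR or DESeq2 on the recovered reads or with library size scaling, where 4 members were left. Egfr lost its call without 57SCLC_allo 275 (-0.87), and Fgfr1 and Pdgfrb lost theirs without 57SCLC_allo 316 (-0.79 and -0.78). Leaving out Lung CT3 or CT4 also ended both calls and leaving out CT5 that of Pdgfrb, by their adjusted p. Kit, at -0.98, was called without 57SCLC_allo 316 (-1.02) or 317 (-1.01). Of all genes, 18.9% were called higher and 26.9% lower, with medians of -1.07 and -0.09. Lung is a mixture of cell types, with alveolar markers at 245496 to 332543 and endothelial markers at 92562 to 106407 in sum, so a level in Lung is an average over them. The 4 comparisons with Lung share the same 3 lungs.

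The ligands of these receptors were read next, named by rule. Of the ErbB ligands, Ereg (epiregulin) was at 4139.6 ± 250.4 in 46LCNEC cells (mean ± SD, n = 3), was not detected in 57SCLC cells, and stood at 972 ± 162 and 36.2 ± 15.3 in the allografts and 7.97 ± 3.35 in Lung. Ereg was at least 2479-fold higher in 46LCNEC cells. Hbegf was at 2401 ± 124 and 207 ± 27.6 in the cells of the 2 lines (log2FC -3.54, SE 0.11, adjusted p = 5.12e-08), and Areg (amphiregulin) at 143 ± 11.1 and 6.71 ± 2.32 (log2FC -4.27, SE 0.27, adjusted p = 2.40e-06). Nrg2, a neuregulin, went the other way, at 37.6 ± 10.2 in 46LCNEC and 736 ± 464 in 57SCLC cells (log2FC 4.12, SE 0.40, adjusted p = 3.07e-05). Of 9 ErbB ligands tested between the cells, 3 (Ereg, Areg and Hbegf) were lower and 3 (Nrg2, Tgfa and Btc) higher in 57SCLC. From 46LCNEC cells to allografts 4 of 9 fell (Egf, Ereg, Areg and Tgfa). The shares of all genes were 22.2% lower and 23.9% higher between the cells and 8.45% lower from 46LCNEC cells to allografts.

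Hgf, the ligand of Met, was at 5.25 ± 0.558 in 46LCNEC cells, 2.71 ± 1.71 in 57SCLC cells, 28.5 ± 1.90 in 57SCLC allografts and 381 ± 100 in Lung. In 46LCNEC allografts it was at 1410.3 ± 597. It rose in the allografts of both lines (log2FC 7.74, SE 0.32, adjusted p = 6.37e-06 for 46LCNEC and log2FC 3.08, SE 0.38, adjusted p = 0.00036 for 57SCLC). In cells of either line Hgf was too low to be tested between them.

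Kitl, the ligand of Kit, was at 2129 ± 139 in 46LCNEC cells, 728 ± 178 in their allografts, 952 ± 73.4 in 57SCLC cells, 827 ± 70.8 in their allografts and 7751 ± 429 in Lung. It was called lower in 57SCLC cells (log2FC -1.16, SE 0.09, adjusted p = 7.20e-06) and fell from 46LCNEC cells to allografts (log2FC -1.57, SE 0.17, adjusted p = 0.000367), the comparison in which Kit rose. Igf1, which binds Igf1r, was at 937 ± 80.4 in 46LCNEC cells and 7.59 ± 1.86 in 57SCLC cells (log2FC -6.79, SE 0.21, adjusted p = 4.46e-08). It rose to 358 ± 86.5 in 57SCLC allografts (log2FC 5.39, SE 0.27, adjusted p = 2.08e-06), where Igf1r also rose, and stood at 1352 ± 443 in 46LCNEC allografts and 562 ± 86.4 in Lung. Igf2 was listed at 0 in all 15 samples, and 65.5% of its exonic bases are shared with other annotated genes. How reads on shared bases were counted was not given in the sources used here.

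The PDGF ligands were all lower in 57SCLC than in 46LCNEC cells, beside 22.2% of all genes called lower. Pdgfc was at 3079 ± 239 in 46LCNEC cells and not detected in 57SCLC cells, a difference of at least 1844-fold. Pdgfa was at 1885 ± 108 and 902 ± 130.0 (log2FC -1.07, SE 0.11, adjusted p = 4.70e-05), Pdgfb at 806 ± 47.3 and 329.5 ± 106 (log2FC -1.33, SE 0.20, adjusted p = 0.000438) and Pdgfd at 55.4 ± 17.5 and 8.80 ± 5.23 (log2FC -2.64, SE 0.45, adjusted p = 0.000823). All 4 rose from 57SCLC cells to allografts, beside 14.4% of all genes. In those allografts they stood at 1863 ± 152 for Pdgfa, 698 ± 106 for Pdgfb, 219 ± 41.7 for Pdgfc and 80.9 ± 3.83 for Pdgfd. In 46LCNEC 1 of 4 rose, Pdgfa, to 4471 ± 1166, beside 14.4% of all genes. Among the FGF ligands, Fgf5 was not detected in the 46LCNEC groups and stood at 714 ± 215 in 57SCLC cells, 880.4 ± 96.0 in 57SCLC allografts and 3.95 ± 3.42 in Lung, which puts 57SCLC cells at least 254-fold above 46LCNEC cells. Fgf9 was at 31.4 ± 6.91 in 57SCLC cells and listed at 0 in the 3 samples of 46LCNEC cells, at least 11.2-fold. These were the 2 called of 5 FGF ligands tested, both higher in 57SCLC cells, beside 23.9% of all genes called higher.

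Downstream of the receptors, the adaptors were called in shares near those of all genes. Of 15, 4 were higher and 4 lower in 57SCLC than in 46LCNEC cells, beside 23.9% and 22.2% of all genes. Grb7, an adaptor that binds ErbB receptors, was at 5.13 ± 5.16 in 46LCNEC cells, 1489.9 ± 135 in 57SCLC cells and 657 ± 68.3 in Lung (log2FC 8.25, SE 0.51, adjusted p = 2.09e-06 between the lines). Shc1 was at 7359.9 ± 662 and 1322 ± 146 (log2FC -2.48, SE 0.11, adjusted p = 2.43e-07), Irs1, which docks on Igf1r, at 1491 ± 146 and 464 ± 49.8 (log2FC -1.68, SE 0.11, adjusted p = 3.36e-06), and the phospholipase Plcg1 at 254 ± 7.98 and 66.3 ± 17.7 (log2FC -1.95, SE 0.20, adjusted p = 4.37e-05). From 46LCNEC cells to allografts 2 of 14 rose, Gab1 and Gab2, beside 14.4% of all genes.

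The feedback inhibitors were lower in the 57SCLC line. In cells 12 of 17 were lower, beside 22.2% of all genes, and the other 5 were not called, with a median log2 fold change of -1.85 against 0.0003 for all genes. In allografts 10 of 16 were lower, beside 14.2%. Spry4 was at 337 ± 49.9 in 46LCNEC cells and listed at 0 in the 57SCLC cells, at least 202-fold lower. Spred1 was at 3115 ± 213 and 2.86 ± 2.50 (log2FC -9.84, SE 0.39, adjusted p = 1.65e-07), Dusp5 at 2311 ± 291 and 32.1 ± 2.69 (log2FC -6.12, SE 0.13, adjusted p = 1.04e-08) and Dusp4 at 4411 ± 545 and 86.8 ± 23.8 (log2FC -5.68, SE 0.21, adjusted p = 1.13e-07). From 57SCLC cells to allografts 8 of 17 rose, Spred1 to 761 ± 170.3 and Spry4 to 216 ± 52.1, beside 14.4% of all genes. In 46LCNEC 3 of 16 rose and 2 fell, near the 14.4% and 8.45% of all genes.

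The ERK-responsive genes (Etv1, Etv4, Etv5, Egr1, Fos, Fosl1, Phlda1, Ier3 and Epha2) are known to be transcribed when ERK is active. All 9 were lower in 57SCLC than in 46LCNEC cells, beside 22.2% of all genes, with a median log2 fold change of -6.59. Etv4 was at 4038 ± 256 in 46LCNEC and 4.96 ± 1.75 in 57SCLC cells (log2FC -9.45, SE 0.22, adjusted p = 1.38e-08) and Epha2 at 9464 ± 391 and 22.8 ± 6.03 (log2FC -8.67, SE 0.19, adjusted p = 1.04e-08). Etv5 was at 1271 ± 86.3 and 10.8 ± 1.49 (log2FC -6.75, SE 0.16, adjusted p = 1.33e-08), and Etv1 at 331 ± 74.2 and not detected, at least 198-fold lower. In allografts 7 of 9 were lower in 57SCLC, beside 14.2% of all genes. All 9 rose from 57SCLC cells to allografts, beside 14.4% of all genes, Etv4 to 163 ± 60.8, Etv5 to 185 ± 36.4 and Epha2 to 142 ± 43.2. In 46LCNEC, Fos rose, Epha2 and Etv4 fell, and the other 6 were not called, beside 14.4% and 8.45% of all genes that rose and fell. The step differed between the lines for 8 of the 9 by the interaction term. Of all genes, 10.8% were called with a larger step in 57SCLC and 6.78% with a smaller one. Protein phosphorylation was not measured.

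**Figure D5:**
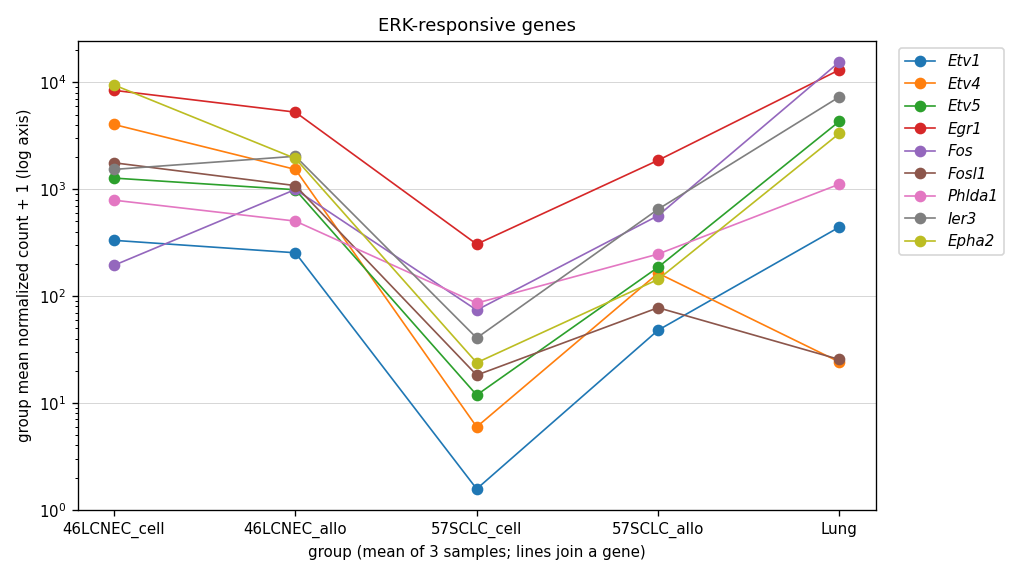
Group mean normalized count + 1 (log axis, n = 3) of the 9 ERK-responsive genes in the 5 groups, with lines joining the values of a gene. All 9 are lower in 57SCLC cells than in 46LCNEC cells and higher in 57SCLC allografts than in 57SCLC cells.

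The insulin-like growth factor binding proteins, read with Igf2r, were called lower in 57SCLC cells for 5 of 7 and higher for 1, beside 22.2% and 23.9% of all genes. Igfbp5, which was higher, stood at 4157 ± 872 in 46LCNEC cells, 146900.0 ± 6404 in 57SCLC cells, 146891 ± 38396 in 46LCNEC allografts and 31692 ± 2263 in 57SCLC allografts. It was the only one of the tested 7 that fell from 57SCLC cells to allografts, where 5 rose, beside 2.29% and 14.4% of all genes. Igfbp4 was at 695 ± 111 in 46LCNEC cells and not detected in 57SCLC cells, at least 416-fold lower, and at 40546 ± 7194 and 2689.6 ± 419.8 in the allografts. Igfbp7 was at 11324 ± 932 and 79.3 ± 22.2 in cells (log2FC -7.17, SE 0.18, adjusted p = 1.83e-08). Igfbp2 was at 4405 ± 526 and 129 ± 181 (log2FC -6.21, SE 0.92, adjusted p = 0.000391), with a spread in 57SCLC cells larger than the mean.

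The same fits covered other receptor tyrosine kinases. Of 43, 33 could be tested between the lines in cells, and 6 were higher and 17 lower in 57SCLC, with a median of -1.004, beside 23.9% and 22.2% of all genes. Axl, the receptor of Gas6, was at 17337 ± 434 in 46LCNEC cells and not detected in 57SCLC cells, at least 10380.0-fold lower. Epha2, which is also on the list of ERK-responsive genes, was given above. Ephb4, an ephrin receptor, was at 3192 ± 321 and 10.7 ± 0.784 (log2FC -8.09, SE 0.13, adjusted p = 4.24e-09). Ltk was higher in 57SCLC cells, at 963 ± 26.1 against 2.19 ± 2.17 (log2FC 8.44, SE 0.42, adjusted p = 5.46e-07). Axl stood at 11001 ± 1201 in 46LCNEC allografts, 1675 ± 506 in 57SCLC allografts and 4411 ± 274 in Lung, and Ltk at 6.36 ± 5.99, 708 ± 39.4 and 158 ± 32.5. From cells to allografts 11 of 34 rose in 46LCNEC and 16 of 37 in 57SCLC, beside 14.4% of all genes in each.

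Some members ran together over the 15 samples, which are described here without a test because the samples of a group share their line or tissue. The Pearson correlation of log2(normalized count + 1) was 0.99 between Fgfr1 and Pdgfrb and 0.99 between Fgfr1 and Egfr. It was 0.93 between Kit and Erbb3 and -0.73 between Erbb3 and Egfr. Among 15072 genes, the closest to each member were Rcn1 (0.999), Ebf1 (0.997), Olfml3 (0.995) for Fgfr1, Sparc (0.997), Pla2g4a (0.997), Cavin3 (0.995) for Pdgfrb, Fam114a1 (0.994), Gpc4 (0.993), Ttyh2 (0.993) for Egfr and Nes (0.993), Sfmbt2 (0.993), Map2k6 (0.988) for Met. For Pdgfra they were Scarf2 (0.995), Fut4 (0.995), Adgrl3 (0.993), for Erbb2 Magi1 (0.991), Lrrk1 (0.988), Zfp820 (0.988), and for Erbb3 Gm16136 (0.997), AI661453 (0.997), Dcdc2a (0.996). For Kit they were Ccdc85a (0.994), Wnk4 (0.991), Mfsd6l (0.991), for Fgfr2 Zfp608 (0.961), Myo5c (0.950), Col23a1 (0.941), and for Igf1r Fam210b (0.953), Sfrp4 (0.952), Adcyap1r1 (0.947). The number in brackets is Pearson's correlation over all 15 samples. Only Sfmbt2 for Met and Rcn1 for Fgfr1 were also among the 3 closest by Spearman's correlation.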

How the data were processed

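Poly-A RNA of 15 mouse samples was sequenced in read pairs. The deposited matrix holds signal values: the authors used Rbowtie2 for alignment (GRCm39) and featureCounts with GENCODE M27 for counting, and then scaled each sample by its DESeq2 size factor. Strand setting and the handling of reads with several alignments were not given in the sources used here. Every value was a whole multiple of 1 read within 0.01 reads, so reads were recovered, and floors and bounds use 3 reads and cover counting error only. Coordinates and lengths came from a later GENCODE release, in which 54749 (98.9%) of the identifiers were found. Up to 6.3% of the exonic bases of a member (Igf1r) are shared with another gene.

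Each comparison was fitted with limma 3.58.1 (R 4.3.3), allowing for a mean-variance trend, to log2(normalized count + 1) in 6 samples, or 12 for the interaction term. Genes that reached 10 normalized counts in 3 or more of those samples were tested, and p-values were adjusted over all of them by the Benjamini-Hochberg method. Alternatives were edgeR 4.0.16, DESeq2 1.42.0, other scalings, filters, pseudocounts and thresholds, and leaving out each sample. The fits were tested on simulated data. From each list, at most 4 genes with the largest change between the lines in cells were named, and every ligand of Met, Igf1r, Kit and the PDGF receptors. Members, lists and this rule were chosen with earlier results of these data known. Nothing in the labels states that samples with the same letter in the 2 lines were paired. Some items of the genotype are not reported here.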

Additional observations from a re-analysis of the deposited data

Results flagged for a closer look

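The step from cells to allografts differed between the lines by a test of the difference itself, an interaction term fitted with limma over 12 samples, for 6 members. The log2 difference of the steps, 57SCLC minus 46LCNEC, was 8.27 for Pdgfrb (adjusted p = 3.48e-08), 6.50 for Fgfr1 (adjusted p = 8.34e-08) and 4.32 for Egfr (adjusted p = 4.62e-07). It was 2.34 for Igf1r (adjusted p = 1.60e-05) and 1.45 for Pdgfra (adjusted p = 0.00379). For Kit it was -2.59 (adjusted p = 0.000275), with all 3 allografts of 46LCNEC above the cells and the 57SCLC samples overlapping. Igf1r was higher in 3 of 3 allografts of 57SCLC and lower in 3 of 3 of 46LCNEC. Groups of 3 samples were not searched for single outlying samples.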

How the results depend on the processing

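Over the other settings, 95 of 100 counts of called members stayed within 1.5 times the value given, and so did all 60 counts with 1 sample left out. Among single members, 954 of 1000 values kept their direction and call over the settings and 567 of 600 with a sample left out. The 7 members lower in 57SCLC allografts than in Lung became 4 by edgeR, 4 by DESeq2, 4 with library size scaling and 3 when tested against a 2-fold change, and the 5 that rose in 46LCNEC allografts became 1 in that last test. Small differences turned sign. Igf1r in 46LCNEC cells against Lung (-0.06) was 0.0657 by edgeR, 0.0272 by DESeq2, 0.0570 with TMM and 0.0894 with upper quartile scaling. Fgfr2 between the allografts of the lines (-0.14) was 0.127 with library size scaling and -0.27 to 0.0692 with 1 sample left out, positive without 57SCLC_allo 275. Erbb3 in 46LCNEC allografts against cells (-0.12) was -0.38 to 0.115 with 1 sample left out, positive without 46LCNEC_cell A. The cause was not tested.

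With 1 sample left out, the members called ranged from 5 to 6 for 46LCNEC cells against Lung, 6 to 8 for 46LCNEC allografts, 7 to 8 for 57SCLC cells and 5 to 8 for 57SCLC allografts. Between the lines they stayed at 9 in cells and 8 in allografts. From cells to allografts they ranged from 4 to 7 in 46LCNEC, stayed at 6 in 57SCLC, and ranged from 5 to 7 for the difference of the steps. With the letter as a replicate block, 9 members were called between the lines in cells, and no call changed. Deviations of samples with the same letter correlated at 0.09, -0.08 and -0.01, and those of samples with different letters at -0.10 to 0.12. With 3 samples per line, these values cannot show whether samples of a letter were handled together.

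Library size scaling moved the median log2 fold change of all genes by more than 0.1 in 4 comparisons, to 0.24 between the lines in cells, 0.28 in allografts, 0.12 for 57SCLC cells against Lung and 0.13 for 57SCLC allografts against Lung. The groups hold 3 samples each, and 57SCLC_allo 275 had the fewest reads, at 9480244. The levels of Met, Pdgfrb and Fgfr1 in 57SCLC cells rest on 13 reads or fewer per sample.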

Other observations

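Several receptors outside the 10 stood out, and they were chosen after their values had been seen. Ret, the receptor of GDNF family ligands, was at 8207 ± 1652 normalized counts in 57SCLC cells and 7814 ± 306 in 57SCLC allografts (mean ± SD, n = 3), against 789.9 ± 69.0 in 46LCNEC cells, 412 ± 598 in 46LCNEC allografts and 384 ± 83.9 in Lung. It was called higher in 57SCLC than in 46LCNEC cells (log2FC 3.36, SE 0.15, adjusted p = 3.55e-07, limma). Alk was at 1074 ± 533 in 46LCNEC allografts, 83.2 ± 12.3 in the cells of that line and 128 ± 7.28 in 57SCLC cells. It rose from 46LCNEC cells to allografts (log2FC 3.58, SE 0.33, adjusted p = 0.000166). Fgfr3 was at 6459.9 ± 136 in Lung, 1756 ± 163 in 46LCNEC cells and 129 ± 22.5 in 57SCLC cells, and Fgfr4 was at 3067 ± 539, 3.18 ± 1.58 and 173 ± 33.2 in the same groups. Fgfr3 fell from 46LCNEC cells to allografts, to 169.6 ± 84.6.

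Csf1r, Tie1 and Kdr, known from macrophages or endothelium, were called higher in allografts than in cells in both lines. Csf1r was at 34.7 ± 15.3 and 4.77 ± 2.56 in 46LCNEC and 57SCLC cells and at 6495 ± 1499 and 1576 ± 467 in their allografts. Tie1 was listed at 0 in all cell samples and was at 816 ± 212 and 279 ± 13.8 in allografts and 7961 ± 937 in Lung. Kdr, a VEGF receptor, was at 290.0 ± 22.5 in 46LCNEC cells, 1117 ± 248 in their allografts, 464 ± 94.3 in 57SCLC allografts and 14041 ± 1064 in Lung, and was not detected in 57SCLC cells. Tgfa, a ligand of Egfr, was at 2397 ± 252 in 57SCLC cells, where Egfr was lowest, and at 249 ± 61.3 in 46LCNEC cells (log2FC 3.29, SE 0.18, adjusted p = 8.75e-07).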
